A study of Mus musculus with 34 samples.

Results

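Auts2, AK044145, Arl4d, DXBay18, Lrrc8d, Sh3pxd2a, Sned1 and Tbcel are 8 of the genes that the study set apart as likely direct targets of thyroid hormone in juvenile mouse liver, where it looked for genes that moved alike in both groups of pups injected with hormone and the other way in hypothyroid pups, and these 8 were given as higher in the injected groups. On the arrays they were found through the accession that RefSeq or the study's own gene lists pair with each name. This gave 14 of 41174 probes, and 8 of 33269 genes or unnamed transcripts. For each gene a main probe was fixed, and the 6 further probes were used to see whether several probes of a gene moved alike. As the injected groups had chosen these genes, their differences from control and from hypo are described here without a test. The fit's adjusted p-values are given for hypo against control and hypo+ against hyper, but the study's choice also weighed how these groups moved, so that they are no independent evidence on the members.

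The livers came from 34 C57BL/6 pups on postnatal day 15, 17 of each sex, and each array compared the Cy5-labelled RNA of 1 pup with a Cy3-labelled universal mouse reference RNA. Control pups received saline. Hyper pups received 50 µg of T4 and 5 µg of T3 per 100 g of body weight by intraperitoneal injection. The dams of hypo and hypo+ pups drank water with 0.05% methimazole, which blocks hormone synthesis, and 1% perchlorate, which blocks iodide uptake, for 3 days, after which hypo pups received saline and hypo+ pups 20 µg of T4 and 2 µg of T3 per 100 g. All injections were given 4 h before the liver was collected. Control, hyper, hypo and hypo+ comprised 4, 5, 4 and 4 males and 4, 5, 5 and 3 females. The hypo+ pups on the arrays were those in which serum T4 had come back to about the control level or slightly above it. The study still reports serum T4 in this group as significantly above control. Hyper and hypo+ thus differ in dose and in goitrogen exposure, which cannot be told apart. The study's methods treat pups of the same sex as independent of each other with respect to the dam. The litter of a pup was not used here, so that brothers and sisters may meet where the sexes are pooled.

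Values are log2 ratios of pup to reference after loess normalization. They do not compare the level of one gene with that of another. The median Cy5 signal of an array ranged from 146 to 199, and 73.0% to 87.7% of probes lay above the limit set by 153 negative control spots. All 4 hepatocyte markers on the array (of 6 listed) were above that limit in every pup, and so were 3 of 4 neuronal markers. In 3 control pups, males 832 and 522 and female 831, the summed Cy5 signal of 4 pancreatic acinar markers was 21169.5, 16461.5 and 3980.5, against 377 to 1098.5 in the other pups. These 3 pups were left out as an alternative, and the values are given where a call changed. In whole liver, fewer cells of a type and less RNA per cell cannot be told apart.

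Thyroid hormone acts largely through nuclear receptors that sit on DNA, usually with the retinoid X receptor as partner. T4 is converted to the more active T3 inside the cell, and T3 binding turns the receptor from a repressor of nearby genes into an activator. The sites are built from copies of the hexamer AGGTCA, most often as a direct repeat spaced by 4 bases. In liver the hormone is known for its control of lipid, cholesterol and glucose metabolism.

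RefSeq promoters (build GRCm38.p6, 250 bases before to 50 after a start site) were at hand for 5 of the 8 genes, 8 windows in all. They are shown for Sned1 and DXBay18, the genes that also fell in hypo pups, and for the start sites of Tbcel that held a match. Each is written 5′ to 3′ on the strand of the gene. Capitals mark a match on either strand to AGGTCA or to the looser direct repeat NGGNCANNNNNGGNCA.
Sned1, chr1:93235647-93235946, plus strand: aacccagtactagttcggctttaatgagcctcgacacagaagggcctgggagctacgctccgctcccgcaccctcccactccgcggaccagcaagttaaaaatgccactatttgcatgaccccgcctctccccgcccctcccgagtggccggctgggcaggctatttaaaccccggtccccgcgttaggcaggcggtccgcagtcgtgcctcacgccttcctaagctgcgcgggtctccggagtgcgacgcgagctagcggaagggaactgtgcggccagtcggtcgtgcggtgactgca
DXBay18, chrX:73149401-73149700, minus strand: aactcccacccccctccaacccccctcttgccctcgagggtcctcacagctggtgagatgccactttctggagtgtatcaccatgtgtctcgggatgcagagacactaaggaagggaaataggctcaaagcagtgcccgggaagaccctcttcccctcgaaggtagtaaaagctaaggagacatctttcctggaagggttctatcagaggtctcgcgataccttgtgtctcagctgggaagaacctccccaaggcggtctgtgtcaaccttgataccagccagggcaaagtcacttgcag
Tbcel, chr9:42472189-42472488, minus strand: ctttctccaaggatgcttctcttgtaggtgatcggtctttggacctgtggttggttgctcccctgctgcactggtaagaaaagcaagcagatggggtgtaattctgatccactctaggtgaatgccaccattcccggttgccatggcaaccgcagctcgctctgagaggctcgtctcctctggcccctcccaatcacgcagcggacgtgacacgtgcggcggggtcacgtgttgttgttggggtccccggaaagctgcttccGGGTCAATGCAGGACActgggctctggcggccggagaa
Tbcel, chr9:42457551-42457850, minus strand: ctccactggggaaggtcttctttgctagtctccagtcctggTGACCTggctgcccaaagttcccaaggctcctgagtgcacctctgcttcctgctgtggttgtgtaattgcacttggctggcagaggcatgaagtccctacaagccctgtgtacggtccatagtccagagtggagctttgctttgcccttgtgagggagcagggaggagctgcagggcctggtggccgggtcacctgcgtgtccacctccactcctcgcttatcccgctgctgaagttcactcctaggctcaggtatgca

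Among the 8 windows, AGGTCA was found in 1, a start site of Tbcel, on the reverse strand, and in 16.3% of all 32851 promoters. The exact repeat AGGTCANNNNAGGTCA was in none of the 8 and in 0.0152% of all promoters, and AGGNCANNNNAGGNCA in none and in 0.253%. The looser NGGNCANNNNNGGNCA was in 1, another Tbcel start site, where it begins 12 bases past the start, and in 1.99% of all. The inverted repeat AGGTCATGACCT was in none of the windows searched. Any window with the exact repeat also holds AGGTCA and the looser forms. The search covers only these 300 bases, and elements farther away were not looked for. The study's own search used a wider window and scored half-sites. It listed candidate elements for Tbcel, Sned1 and Arl4d, among them a direct repeat with the same half-sites near a Tbcel start.

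Auts2 had the largest difference between hyper and control among the 8 main probes in both sexes. Auts2 is a nuclear protein best known for its part in brain development, where it joins a form of the Polycomb complex PRC1. The gene lies at chr5:131437333-132543220 (GRCm38.p6), and its probes carry the accession of a brain cDNA clone, AK147478. In males, the log2 ratio was 0.40, 0.67, 0.69 and 0.74 in the control pups and 2.05, 2.13, 2.29, 2.44 and 2.48 in the hyper pups. The hypo+ males gave 1.64, 1.86, 2.09 and 2.11, and the hypo males 0.49, 0.62, 0.86 and 0.92. Every injected male thus stood above every uninjected male. In females the values were 0.56, 0.58, 0.83 and 0.88 in control, 2.00, 2.06, 2.29, 2.54 and 2.59 in hyper, 1.67, 1.98 and 2.39 in hypo+, and 0.34, 0.60, 0.77, 0.80 and 1.33 in hypo. Again no injected pup overlapped an uninjected one. The difference from control was 1.65 ± 0.12 (SE) in hyper males and 1.30 ± 0.13 in hypo+ males, or 3.14-fold and 2.46-fold. In females it was 1.58 ± 0.18 and 1.30 ± 0.21, or 3.00-fold and 2.46-fold.

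AK044145, a transcript known only as a cDNA clone from neonatal cortex, behaved much like Auts2. Its log2 ratio was 0.15, 0.20, 0.28 and 0.33 in control males, and 1.36, 1.41, 1.45, 1.86 and 2.18 in hyper males. Hypo+ males reached 0.90, 1.33, 1.39 and 1.67, whereas hypo males stood at 0.04, 0.45, 0.55 and 0.66. Injected and uninjected males did not overlap. In females the control pups gave 0.20, 0.31, 0.35 and 0.45, the hyper pups 1.18, 1.54, 1.97, 2.06 and 2.20, the hypo+ pups 1.02, 1.29 and 1.55, and the hypo pups 0.28, 0.28, 0.32, 0.34 and 0.40, again without overlap. The differences from control were 1.41 ± 0.17 (SE) in hyper and 1.08 ± 0.18 in hypo+ males, and 1.47 ± 0.16 and 0.96 ± 0.18 in females. The probe was dim in uninjected pups. Control signals were 95 to 123, near the negative-control limit of 85.0 to 105.5 per array, and 3 of the 4 control pups of each sex were well above background, so that the low end is measured less surely than for Auts2.

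**Figure D1:**
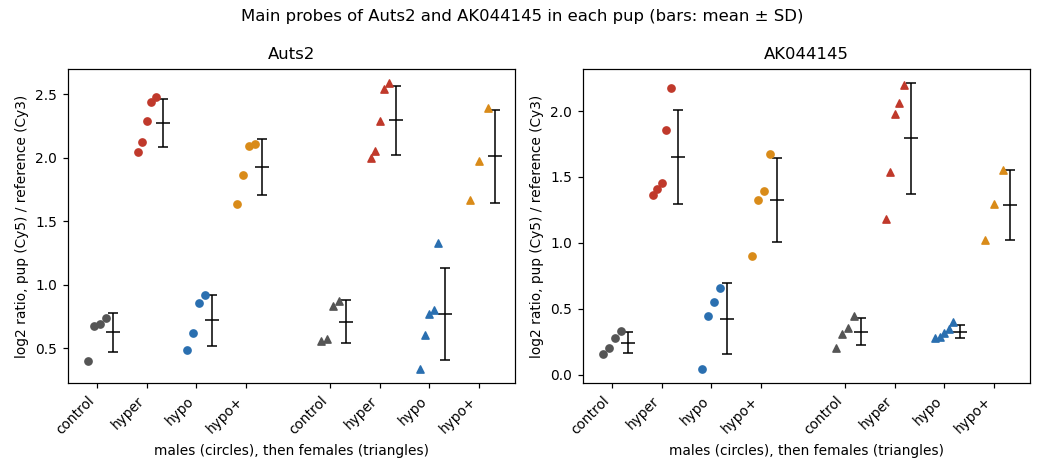
Log2 ratio of pup to reference for the main probes of Auts2 (left) and AK044145 (right), 1 point per pup, males as circles and females as triangles, with the group mean ± SD as a bar beside the points. Hyper and hypo+ pups lie above all control and hypo pups of the same sex, from 1.64 for Auts2 and from 0.90 for AK044145.

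DXBay18, at chrX:73137223-73149466, had a higher mean in hypo+ than in hyper pups in both sexes. Males gave 0.90, 0.90, 1.12 and 1.24 in control, 2.02, 2.14, 2.22, 2.23 and 2.28 in hyper and 1.73, 2.37, 2.51 and 2.92 in hypo+. Females gave 0.90, 1.12, 1.26 and 1.27 in control, 1.43, 1.72, 2.05, 2.09 and 2.15 in hyper and 2.11, 2.19 and 2.58 in hypo+. The injected groups stood above control in each sex but overlapped each other. Relative to control, the difference was 1.13 ± 0.16 (SE) in hyper and 1.34 ± 0.17 in hypo+ males, and 0.75 ± 0.14 and 1.16 ± 0.15 in females. Set against hypo, hypo+ was higher by 2.04 ± 0.17 in males and 1.95 ± 0.15 in females, 4.11-fold and 3.85-fold.

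Sned1 encodes a secreted protein of the extracellular matrix, and the gene lies at chr1:93235796-93301065. Its log2 ratio was −0.38, −0.09, −0.07 and −0.04 in control males, 0.19, 0.43, 0.44, 0.47 and 0.58 in hyper males and 0.36, 0.43, 0.47 and 0.56 in hypo+ males. In females it was −0.27, −0.09, −0.01 and −0.01 in control, 0.28, 0.44, 0.48, 0.53 and 0.62 in hyper and 0.27, 0.39 and 0.40 in hypo+. Both injected groups were above control without overlap, by 0.56 ± 0.09 (SE) in hyper and 0.60 ± 0.09 in hypo+ males and by 0.56 ± 0.08 and 0.45 ± 0.09 in females.

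Lrrc8d, a subunit of the volume-regulated anion channel, lies at chr5:105699963-105815215. Control males ranged from 1.25 to 1.62, hyper males from 2.09 to 2.27 and hypo+ males from 2.03 to 2.32, and hyper exceeded control by 0.69 ± 0.08 (SE). Female controls ranged from 1.43 to 1.81, hyper females from 1.97 to 2.36 and hypo+ females from 1.76 to 2.19. The hypo+ females thus overlapped the controls, through pup 601. Tbcel, a relative of tubulin cofactor E that acts on tubulin stability, lies at chr9:42412316-42472238 and in males had the smallest differences among the genes that were higher. Hyper exceeded control by 0.36 ± 0.07 in males and 0.35 ± 0.06 in females, and hypo+ by 0.42 ± 0.07 and 0.49 ± 0.07. Control pups spanned 1.64 to 1.83 in males and 1.60 to 1.74 in females, and all injected pups were at 1.90 or above.

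Arl4d, a small GTPase of the ARF family at chr11:101665541-101667832, separated from control in males but not in females. Control males ranged from 1.43 to 1.68, hyper males from 2.24 to 2.91 and hypo+ males from 2.21 to 2.95. Among females the control pups already ranged from 1.78 to 2.48, hyper females from 1.76 to 2.82 and hypo+ females from 2.32 to 3.04. The female groups overlapped, and the difference from control was 0.29 ± 0.24 (SE) in hyper and 0.76 ± 0.27 in hypo+ females, compared with 0.99 ± 0.14 and 0.97 ± 0.14 in males. The difference between the sexes in these values was not tested.

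The main probe of Sh3pxd2a did not show a separation of injected from control pups. The gene encodes a scaffold protein of podosomes, and lies at chr19:47260174-47464612. Its only probe with a RefSeq accession ranged from 0.26 to 0.37 in control males, 0.22 to 0.39 in hyper males and 0.17 to 0.36 in hypo+ males. The difference from control was −0.01 ± 0.07 (SE) in hyper and −0.07 ± 0.08 in hypo+ males, and 0.17 ± 0.09 and 0.08 ± 0.10 in females. In either sex the groups overlapped. The female hyper minus control value varied with the processing, at 0.43 on Cy5 alone and 0.0015 with median centring.

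Another probe is tied to Sh3pxd2a only by an older name. It carries the accession AK009333, which the study's supplementary lists call 2310014D11Rik, and the RefSeq table gives 2310014D11Rik as a synonym of Sh3pxd2a. This probe was singled out after its values had been seen, and no coordinates or sequence were at hand to place it. Its log2 ratio was −0.96, −0.59, −0.50 and −0.40 in control males, 0.04, 0.05, 0.09, 0.13 and 0.31 in hyper males, −0.08, 0.02, 0.05 and 0.08 in hypo+ males, and −0.91 to −0.71 in hypo males. Females ranged from −0.80 to −0.34 in control, 0.05 to 0.17 in hyper, −0.02 to 0.05 in hypo+ and −0.96 to −0.60 in hypo. Injected pups stood above uninjected pups in both sexes. The difference from control was 0.74 ± 0.09 (SE) in hyper and 0.63 ± 0.10 in hypo+ males, and 0.73 ± 0.09 and 0.62 ± 0.11 in females. Over the 34 pups its r with the RefSeq probe of Sh3pxd2a was 0.27, and its r with Auts2 was 0.93. Both probes, tied to a single gene name, gave different patterns across the same pups. The study lists Sh3pxd2a as higher in hyper and hypo+ pups of both sexes. The AK009333 probe shows that rise and the RefSeq probe does not. Which probe lay behind the study's entry was not tested, so that the flat RefSeq probe does not show that the gene failed to respond.

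**Figure D2:**
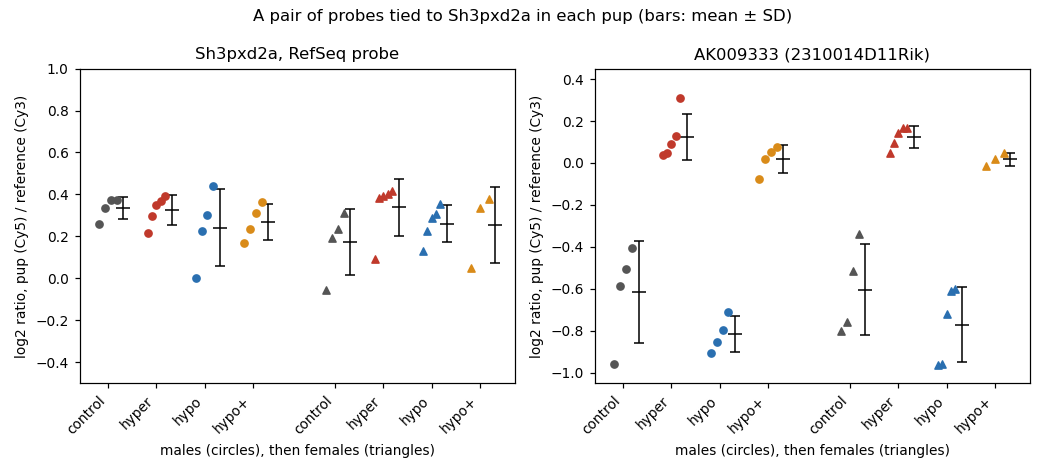
Log2 ratio of pup to reference for the RefSeq probe of Sh3pxd2a (left) and the AK009333 probe (right), 1 point per pup, males as circles and females as triangles, with the group mean ± SD as a bar. Both vertical axes cover the same number of log2 units. On the left the groups overlap, and on the right every injected pup is at −0.08 or above while every uninjected pup is at −0.34 or below.

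Counted over main probes, hyper males lay above all control males in 7 of 8 genes, and hypo+ males in 7 of 8. Among all probes this separation was met in 0.901% for hyper and 2.02% for hypo+. In females the counts were 6 of 8 for hyper, where 1.3% of all probes separated, and 5 of 8 for hypo+, where 2.43% did. Since these contrasts chose the genes, and share their control pups, the counts describe the choice. The order of the genes by size was led by Auts2 and AK044145 in hyper pups, and by DXBay18 and Auts2 in hypo+ males and Auts2 and DXBay18 in hypo+ females. Hyper was also compared with control within slides, where pups of the same sex shared a slide. It was higher on 8 of 8 slides for every gene but Arl4d (7 of 8) and Sh3pxd2a (3 of 8). The difference was 1.37 to 1.72 for Auts2. These slides hold the same pups in the contrast that chose the genes, so that their counts again describe the choice. The share among all probes was not computed.

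**Figure D3:**
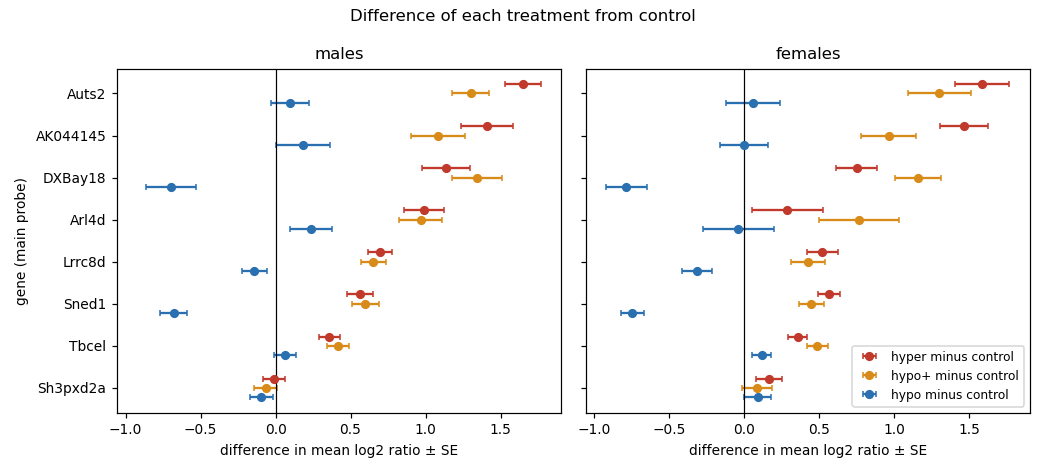
Difference in mean log2 ratio from control (horizontal axis, with SE bars) for the main probe of each gene in males (left) and females (right), hyper in red, hypo+ in orange and hypo in blue. The injected groups lie right of 0 except for Sh3pxd2a in males. In hypo, Sned1 and DXBay18 lie farthest left of 0, at −0.68 and −0.70 in males and −0.75 and −0.79 in females. Lrrc8d is also left of 0 in hypo, at −0.14 in males and −0.32 in females.

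In hypo pups, Sned1 fell in both sexes, and DXBay18 fell in females. A lower level in hypo was among the features the study looked for, so that these calls are not independent evidence of direction. The log2 ratio of Sned1 was −1.01, −0.79, −0.77 and −0.73 in hypo males and −1.03, −0.84, −0.82, −0.79 and −0.73 in hypo females. All of these pups lay below every control pup. The difference from control was −0.68 ± 0.09 (SE, adjusted p = 0.0102, limma) in males and −0.75 ± 0.08 (adjusted p = 0.000247) in females, a level 1.60-fold and 1.68-fold lower. On 7 of 7 slides that held a hypo and a control pup of the same sex, the hypo minus control difference of Sned1 was negative, from −0.81 to −0.57. With median centring in place of loess the difference was −0.79 in males and −0.64 in females and neither passed (adjusted p = 1), and on the Cy5 channel alone the female value of −0.79 did not pass (adjusted p = 0.0614).

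DXBay18 was at 0.25, 0.31, 0.33 and 0.49 in hypo males and at 0.25, 0.27, 0.32, 0.41 and 0.50 in hypo females, below every control pup of the same sex. It differed from control by −0.79 ± 0.14 (SE, adjusted p = 0.022, limma) in females. In males the difference was −0.70 ± 0.17 and did not pass the test (adjusted p = 0.229). With both sexes in a single fit, which called 1.09% of all probes, the difference was −0.74 ± 0.11 (adjusted p = 0.000217, limma). That fit treats all pups as independent, although brothers and sisters may be among them. Without any single pup the female difference was between −0.87 and −0.74, but the call was lost without some of them. Leaving out control 523, 831 or 882, or hypo 743, 316 or 575, gave adjusted p-values of 0.0839, 0.0907, 0.0964, 0.0753, 0.06 and 0.0613, and leaving out hypo+ male 546, which enters the shared estimate of spread, brought the male value to an adjusted p of 0.0192. Control female 831 is the female with acinar signal, and its part in the result was not tested beyond leaving it out. The female value was not called with normexp background correction (−0.66, adjusted p = 0.216), with median centring (−0.58, adjusted p = 0.201) or on Cy5 alone (−0.72, adjusted p = 0.0614).

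**Figure D4:**
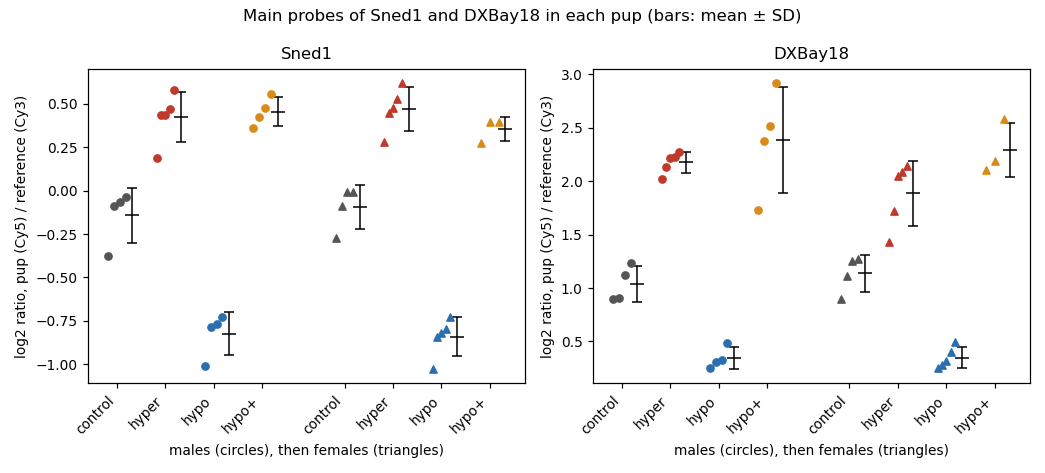
Log2 ratio of pup to reference for the main probes of Sned1 (left) and DXBay18 (right), 1 point per pup, males as circles and females as triangles, with the group mean ± SD as a bar. For both genes all hypo pups lie below and all hyper and hypo+ pups above the control pups of the same sex, with hypo means of −0.82 and −0.84 for Sned1 and 0.34 and 0.35 for DXBay18.

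In all, 1 of 8 main probes was called in hypo against control in males, where 0.0971% of all probes were, and 2 of 8 in females, where 0.155% were. Auts2 differed by 0.10 in males (95% interval −0.17 to 0.36) and 0.06 in females (−0.33 to 0.44), and AK044145 by 0.18 (−0.20 to 0.57) and 0.00 (−0.34 to 0.34). Neither passed the test, each with an adjusted p of 1. Tbcel was also close to control, with differences of 0.06 and 0.11. The difference of Lrrc8d was −0.32 ± 0.10 (SE) in females without overlap, which did not pass the test (adjusted p = 0.503), and −0.14 ± 0.08 in males. Over the 8 genes the median difference was −0.02 in each sex, beside 0.00 for all probes. Below every control pup lay all hypo males in 2 of 8 genes, where 1.59% of all probes did so, and all hypo females in 3 of 8, where 0.925% did.

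The difference in hypo was also tested between the sexes. For no main probe did it differ, nor for any of the 41174 probes (0% called, limma), with 428 probes (1.04%) and none of the 8 at an unadjusted p under 0.05. For Sned1 the female minus male difference was −0.07 (95% interval −0.31 to 0.17), and for DXBay18 it was −0.09 (−0.55 to 0.37).

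Hyper and hypo+ pups received unlike doses, and were next compared with each other. Auts2 was at a hypo+ minus hyper difference of −0.35 ± 0.12 (SE, adjusted p = 0.305, limma) in males and −0.28 ± 0.20 (adjusted p = 0.734) in females. The difference was −0.33 ± 0.17 for AK044145 in males (adjusted p = 0.586) and −0.50 ± 0.17 in females (adjusted p = 0.333), and the male value was 0.045 with normexp. For DXBay18 it was 0.21 ± 0.16 (adjusted p = 0.753) and 0.41 ± 0.15 (adjusted p = 0.363). None of the 8 main probes was called in either sex, where 0.00729% of all probes were called in males and 0.0923% in females. At an unadjusted p under 0.05, 1 of 8 passed in males and 2 of 8 in females, beside 9.68% and 9.21% of all probes.

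Pooling the sexes did not bring a member past the threshold, although 2.83% of all probes were then called. The difference was −0.42 ± 0.13 (SE, adjusted p = 0.0742, limma) for AK044145, −0.32 ± 0.12 (adjusted p = 0.156) for Auts2 and 0.31 ± 0.11 (adjusted p = 0.149) for DXBay18. Within slides, hypo+ was below hyper on 5 of 5 slides for Auts2 (differences of −0.88 to −0.02) and for AK044145 (−0.77 to −0.13). It was above hyper on 4 of 5 for DXBay18 and on 3 of 5 for Lrrc8d and Sned1. For Tbcel it was above on 2 of 5, and for Arl4d and Sh3pxd2a on 1 of 5. The slides hold pups already in the fit. Their counts were not tested, and the share among all probes was not computed. For Lrrc8d the pooled difference was −0.07 (95% interval −0.21 to 0.07), for Sned1 −0.04 (−0.17 to 0.08) and for Tbcel 0.09 (−0.00 to 0.19). Arl4d differed by −0.02 in males and 0.48 in females, with a female minus male difference of 0.50 (95% interval −0.11 to 1.11). No sex difference between the injected groups was called for any probe (0%), with 1081 probes (2.63%) and none of the 8 at an unadjusted p under 0.05.

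Several probes of a gene agreed best for DXBay18. Its further probe had r = 0.98 with the main probe over 34 pups, and 0.83 after the group means were removed. The further probe of Auts2 had r = 0.85 over all pups but 0.29 inside groups, and its change was smaller, at 0.34 ± 0.05 (SE) in hyper and 0.24 ± 0.05 in hypo+ males and 0.24 ± 0.07 and 0.14 ± 0.07 in females. Its median Cy5 signal was 135.5, close to the negative-control limit. In both female injected groups this probe overlapped the controls.

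The further probes of Sned1 had r = 0.95 and 0.87 with the main probe, and 0.25 and 0.18 inside groups. Their median Cy5 signals were 174.25 and 168.25, against 2077 for the main probe. In both sexes the injected groups lay above control without overlap on A_51_P210885. On A_52_P602188 hyper males and the hypo+ pups of both sexes overlapped control. There the hypo+ minus control difference was 0.15 ± 0.08 (SE) in males and 0.05 ± 0.08 in females. Both further probes were lower in every hypo pup than in every control pup of the same sex. The A_51_P210885 probe was called in males at −0.33 ± 0.06 (SE, adjusted p = 0.0402, limma) but not in females at −0.47 ± 0.10 (adjusted p = 0.0768). The A_52_P602188 probe gave −0.24 ± 0.08 (adjusted p = 0.574) and −0.32 ± 0.07 (adjusted p = 0.133). For DXBay18 the further probe gave −0.49 ± 0.16 (adjusted p = 0.619) in males and −0.51 ± 0.13 (adjusted p = 0.238) in females. Of 2 further Tbcel probes, A_52_P287992 had r = 0.78, and 0.76 inside groups, whereas A_52_P327002 had r = 0.30 and a hyper minus control difference of 0.02 ± 0.05 in males and 0.09 ± 0.07 in females. This last probe was also dim, with a median Cy5 signal of 110.25.

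The members were next compared in how they varied between pups of the same group. For each of the 28 pairs of main probes, the deviations from the 8 group means were correlated over 34 pups, with p from 100000 permutations of pups within groups (two-sided), adjusted over the 28 pairs. Auts2 and DXBay18 varied together, with Pearson's r = 0.55 (permutation p = 0.00105, adjusted p = 0.0294) and Spearman's rho = 0.58 (permutation p = 0.00347, adjusted p = 0.0486). The same held for Auts2 and AK044145, with r = 0.52 (permutation p = 0.00321, adjusted p = 0.0449) and rho = 0.61 (permutation p = 0.00163, adjusted p = 0.0456). Without the 2 pups whose Auts2 lay farthest from the median, r was 0.58 in both pairs. Among 26580 probes above the negative-control limit in all pups, 0.158% had a higher r with Auts2 than DXBay18 had, and 0.312% a higher r than AK044145.

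These calls come from pups of both sexes, which may include brothers and sisters, and slide was not part of the permutation. Slide means were removed as well in an alternative chosen after seeing the data, given without a test. There r was 0.46 for Auts2 and DXBay18 and 0.35 for Auts2 and AK044145. Both lay below the r of AK044145 with DXBay18 (0.65), Lrrc8d (0.56) and Sned1 (0.55), so that the order of the pairs changed. In each sex alone, r was positive for these pairs, but 0 of 28 pairs were called in either sex by the permutation test, with 2 in each at an unadjusted p under 0.05. For Auts2 and DXBay18 it was 0.52 in males (permutation p = 0.069, adjusted p = 0.483) and 0.63 in females (permutation p = 0.00965, adjusted p = 0.27). For Auts2 and AK044145 it was 0.54 in males (permutation p = 0.0601, adjusted p = 0.483) and 0.54 in females (permutation p = 0.0331, adjusted p = 0.444). AK044145 and DXBay18 had r = 0.51 over all pups (permutation p = 0.0205, adjusted p = 0.191). The remaining pairs lay between −0.28 and 0.41 and were not called. Sned1, which fell together with DXBay18 in hypo, had r = 0.06 with it inside groups. Slides held too few pups of a group for values within slides. How many pairs are called depends on the normalization: 2 by loess and by the authors' values, 7 on the Cy5 channel alone and 21 with median centring.

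**Figure D5:**
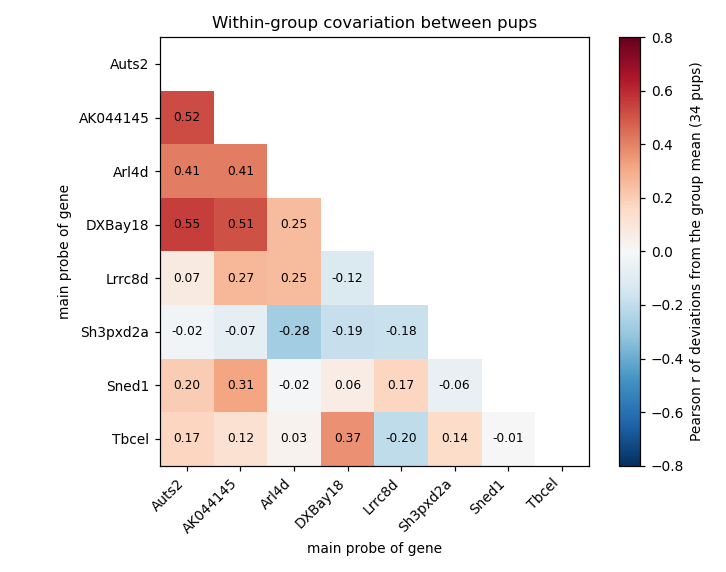
Pearson's r between the deviations of main probes from their group means over 34 pups, one square per pair of genes, from blue (negative) to red (positive). The highest values join Auts2 with DXBay18 (0.55) and AK044145 (0.52), and Sh3pxd2a has values from −0.28 to 0.14.

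Over all 34 pups, group differences included, AK044145 had r = 0.94 with Auts2, above each of the 26580 other probes compared. The non-member probes most like Auts2 were AK009333 (r = 0.93), 2310003H01Rik (0.89), Epm2aip1 (0.88), Ciapin1 (0.86) and AK142275 (0.85), which the study's lists name Stim2. Apart from AK009333, which an older name ties to Sh3pxd2a, these are other genes of the study's direct list. The injected groups set much of the likeness. By deviations from group means, the closest were Plekha4 (0.66), NM_027580 (0.66), AK034007 (0.63), ENSMUST00000094445 (0.63) and NAP062223-1 (0.63). None of these 5 is on that list, and the hyper minus control difference of Plekha4 was −0.16 in males and −0.33 in females.

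Of the study's other 20 direct genes, 19 had a probe. In hypo against control, 1 of 19 fell in males and 2 of 19 in females, where 0.0631% and 0.0947% of all probes were called lower, with a median difference of −0.13 and −0.21 beside 0.00 for all probes. The study had chosen this list on these arrays, with the direction in hypo among its features, so that neither the count nor the median is independent evidence. Slc25a45, a mitochondrial carrier, fell by 0.78 in males (adjusted p = 0.0164, limma) and by 0.74 in females (adjusted p = 0.00862). Trim24, a co-regulator of nuclear receptors, fell by 0.70 in females (adjusted p = 0.00923) and gave −0.52 in males (adjusted p = 0.118). Serpina9 and Stim2 gave −0.59 and −0.46 in females without passing the test. None of the 19 was called between hypo+ and hyper in either sex. Some listed genes, Serpina9 and Ihh among them, were chosen by the study as lower in the injected groups.

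Among 18 classic hormone targets, 17 had a probe, and 1 fell in hypo males and 2 in hypo females, beside the 0.0631% and 0.0947% of all probes called lower. Dio1, the deiodinase that converts T4 to T3, differed by −1.46 in males (adjusted p = 0.0124, limma) and −1.77 in females (adjusted p = 0.00923). Gpd2, the mitochondrial glycerol-phosphate dehydrogenase, fell by 0.83 in females (adjusted p = 0.0129) and gave −0.80 in males (adjusted p = 0.124). Thrsp, a regulator of fat synthesis, gave −1.55 (adjusted p = 0.358) and −1.48 (adjusted p = 0.0768). By its own fit and by quantitative PCR, the study reports Thrsp as significantly lower in hypo pups of both sexes.

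No relative or partner of these genes was called in either tested comparison. Among all probes, 0.0971% in males and 0.155% in females were called in hypo against control. In hypo+ against hyper the shares were 0.00729% and 0.0923%. At such shares a call among so few genes would be rare, so that its absence says little about them. Of 8 measured partners of Auts2, among them the Polycomb proteins Ring1 and Rnf2, hyper minus control ran from −0.16 to 0.24 in males and −0.10 to 0.11 in females. The 4 other subunits of the Lrrc8 channel gave −0.13 to 0.17 in males and −0.18 to 0.19 in females for the same contrast. The others were 5 relatives or partners of Arl4d, 4 of Sh3pxd2a, including the proteases Adam12, Adam15 and Adam19, and 5 tubulin cofactors. Arl4a, the closest relative of Arl4d listed, had hypo minus control differences of 0.45 for males (adjusted p = 0.56) and 0.36 for females (adjusted p = 0.977), limma.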

How the data were processed

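Liver RNA of 34 pups was hybridised in Cy5 against a universal mouse reference in Cy3 on Agilent 2-colour arrays, without dye swap, on 11 slides. The deposited scanner files hold spot intensity values in both channels, which the authors extracted from the scans. A series table deposited by the authors holds processed ratios whose scale is not stated. Set against the loess-normalized log2 ratios they had an r of 0.992 to 0.996, with column medians of −0.0484 to −0.0163. Their slope on the log2 ratios of the scanner signals before normalization was 0.71 to 0.99 per array. They were taken as log2 ratios and used as an alternative only.

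Median signals were loess-normalized within arrays without background subtraction, flagged spots were dropped, and spots were averaged per probe (41174 probes from 43379 spots). Groups of each sex were fitted with limma (version 3.58.1, R 4.3.3), with Benjamini-Hochberg adjustment over all probes and a threshold of 0.05. Scripts were tested on simulated data. Deviations from group means were permuted within groups (100000 draws). The main probe of a gene carried the accession of the study's gene lists where the array held it, and otherwise was the RefSeq probe of highest Cy5 signal. Named genes were the members and the 5 probes most like Auts2 by either measure. From the lists of other direct genes and classic targets, up to 4 genes with the largest change in hypo in either sex were named. Ihh and the named relatives and partners were given as examples, whatever the size of their change. Members and lists were chosen with earlier results of these data known. Alternatives were normexp, median centring, the authors' log2 values, Cy5 alone, a filter on dim probes, slide and scan batch as blocks, both sexes in 1 fit, and leaving out each pup. The scan batch, the pups with acinar signal and the removal of slide means from the covariation were chosen after seeing the data. The day on which goitrogen exposure began is given differently in the sources, and is not printed. The number of arrays limits the precision.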

Additional observations from a re-analysis of the deposited data

Results flagged for a closer look

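Among 98 groups of 4 or 5 pups, 6 held a pup that stood far from the others by Dixon's test. Chance gives about 1 in 20, so that the count is near the chance level and any of these pups may be a chance flag. In control male 522 the main probe of Sned1 was at −0.3761, against −0.0905 to −0.0356 in the other control males. This pup is among those with acinar signal, and its part in the value was not tested. In hyper female 499 the Sh3pxd2a probe was at 0.0931, against 0.3823 to 0.4176. The other 4 values belong to further probes. Auts2 was at −0.0181 in control female 882, against 0.205 to 0.2462. DXBay18 was at 0.8474 in control male 881, against 0.5151 to 0.5468. For Sned1, the A_51_P210885 probe was at −0.3293 in hypo male 311, against −0.3921 to −0.3831, and the A_52_P602188 probe at 0.3783 in hyper female 621, against 0.5793 to 0.6559.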

How the results depend on the processing

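In hypo against control, the count of called genes was 1 of 8 in males and 2 of 8 in females. In males it was 0 with median centring. With both sexes in 1 fit, the difference averaged over males and females gave 2. In females it was 1 with normexp, 0 with median centring, 0 on Cy5 alone and 1 without the control pups with acinar signal, an alternative chosen after seeing the data. Leaving out each pup gave 1 to 2 in each sex. Of 28 pairs, 2 were called for covariation, against 21 with median centring and 7 on Cy5 alone. Between hypo+ and hyper no gene was called under any alternative run.

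Signs turned for some differences that were not called. In hypo+ minus hyper males, normexp gave 0.045 for AK044145, 0.14 for Arl4d and 0.064 for Lrrc8d. Median centring gave −0.13 for Sned1 and −0.088 for Tbcel. Cy5 alone gave 0.099 for Arl4d and −0.046 for Sned1, and slide as a fixed block −0.043 for Tbcel. With both sexes in 1 fit, the average over males and females, which is no male value, was 0.23 for Arl4d and −0.042 for Sned1. In females, median centring gave −0.075 for Tbcel and the slide block 0.042 for Lrrc8d. In hypo minus control males, median centring gave −0.041 for Tbcel and Cy5 alone 0.00032 for Lrrc8d. In females, normexp gave 0.15 for AK044145 and 0.085 for Arl4d, and median centring 0.076 for Arl4d and −0.034 for Sh3pxd2a. The female fit without acinar pups gave 0.0081 for AK044145. The average of hypo minus control over both sexes in 1 fit was 0.091 for AK044145, 0.098 for Arl4d and −0.0029 for Sh3pxd2a. Leaving out single pups, hypo minus control in females ran from −0.043 to 0.039 for AK044145, −0.16 to 0.11 for Arl4d and −0.082 to 0.17 for Auts2. Hypo+ minus hyper ran from −0.16 to 0.083 for Arl4d, −0.027 to 0.072 for Sned1 and −0.024 to 0.11 for Tbcel in males, and from −0.19 to 0.025 for Lrrc8d and −0.15 to 0.020 for Sh3pxd2a in females. The cause was not tested. Of 640 values for single genes under the other settings, 594 kept direction and call. Moves beyond the spread between pups numbered 16, all in differences of injected pups from control. With normexp, hyper minus control in males fell from 1.65 to 1.38 for Auts2, 1.41 to 0.94 for AK044145 and 1.13 to 0.87 for DXBay18. With median centring that male difference was 1.38 for Auts2 and 0.95 for DXBay18. Hypo+ minus control in males was then 1.025 for Auts2, 0.19 for Tbcel and 0.37 for Sned1, and hyper minus control in females 0.53 for Tbcel. With both sexes in 1 fit, hyper minus control averaged over males and females was 0.64 for Arl4d. No paired analysis was possible because the labels give each pup a number of its own that no other group shares. Slide was used as a block instead. Dim probes, AK044145 in uninjected pups above all, limit what these signals resolve.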
